A study of Mus musculus with 25 samples.

Results

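FVB.D300.F1 and C57.D300.F1 are the first-generation males of both inbred mouse strains, FVB/N and C57BL/6J, whose mothers received the phthalate plasticizer DEHP, and their sperm RNA was compared gene by gene. A gene entered the comparison when its estimate had succeeded in both conditions and reached at least 10 counts in one of them. This held for 17377 of the 24358 genes in the table. Of the rest, 6926 genes stayed below 10 counts in both conditions and 55 had a failed estimate in at least one of them. The nearest genes inside the limit were 1810053B23Rik, with 10.01 counts in FVB.D300.F1, and Mir6541, with 10.03, and the nearest outside were Dpf1, with 9.999, and 4933416M06Rik, with 9.991.

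DEHP was given by mouth to pregnant females at 300 mg/kg/day from embryonic day 9 to 19, and the vehicle was corn oil. The male offspring were 14 weeks old, and their sperm had swum out of the incised cauda epididymis. Each condition held 5 libraries. Both conditions carried the exposure, so the comparison is one of strain on a common DEHP background, and the unexposed males of both strains, C57.CTL.F1 and FVB.CTL.F1, and the second-generation C57BL/6J males sired by exposed males, C57.D300.F2, are set beside it. The C57.D300.F1 and C57.CTL.F1 libraries were marked as re-analysed, whereas FVB.D300.F1, FVB.CTL.F1 and C57.D300.F2 were made for this study. Strain and library set therefore cannot be told apart between FVB.D300.F1 and C57.D300.F1, nor between FVB.CTL.F1 and C57.CTL.F1. Whether males of a condition shared a litter was not stated.

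The values are estimated fragment counts, 1 per gene and condition for the 5 libraries together, scaled between libraries and not divided by gene length. No library was quantified alone here, so the differences below rest on pooled values and carry neither a replicate check nor a p-value. The table also holds a model variance, whose square root is called the model SD here. It is the model's own uncertainty of a count and not an SD computed between males. How far it reflects differences between the 5 libraries cannot be read from it. All ratios are log2 ratios of FVB.D300.F1 over C57.D300.F1 with 1 added to each count, and a gene was called higher or lower at 2 log2 units. Counts of different genes are not comparable as levels. The counts summed to 8278486 in FVB.D300.F1 and to 7748902 in C57.D300.F1, and 16244 and 16612 genes reached 10 counts.

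A spermatozoon is transcriptionally silent, and the RNA it carries is left over from spermatogenesis or taken up later. Along the epididymis the epithelium secretes lipocalins, beta-defensins, protease inhibitors and glutathione peroxidase onto the maturing sperm, under the control of androgens and of fluid from the testis, and each segment of the duct makes its own set. Liver RNAs such as albumin are not made by either cell type in quantity. In a bulk RNA sample, fewer cells of a type and less RNA per cell cannot be told apart.

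Of the epididymal list genes in the comparison 51 of 101 were higher in FVB.D300.F1 than in C57.D300.F1 and 4 lower, while 126 of 139 liver list genes and 33 of 95 germ cell list genes were lower and 0 of either higher. In all, 460 of 17377 genes were higher in FVB.D300.F1 (percent called 2.65) and 1332 were lower (percent called 7.67). The median log2 ratio over all genes in the comparison was -0.07, and the central 90% of genes lay between -2.45 and 1.53. The difference in counts exceeded the model SD of the difference for 414 of the higher and 1281 of the lower genes. In the lower condition, 124 of the higher genes had 3 or fewer counts in C57.D300.F1. The same held for 212 of the lower genes in FVB.D300.F1. Genes called lower made up 16.3% of all counts in C57.D300.F1 and 1.32% in FVB.D300.F1, and genes called higher made up 0.871% and 5.10%. Just inside the upper call limit stood the potassium channel gene Kcnj12 (2.002, from 6.91 to 30.7 counts), and just outside stood Alad, which encodes an enzyme of haem synthesis (1.999, from 1473 to 5888 counts). At the lower limit, Tsga8 was just inside (-2.001, from 27.1 to 6.01 counts) and the mast cell protease gene Cpa3 just outside (-1.998, from 179 to 44.1 counts).

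**Figure D1:**
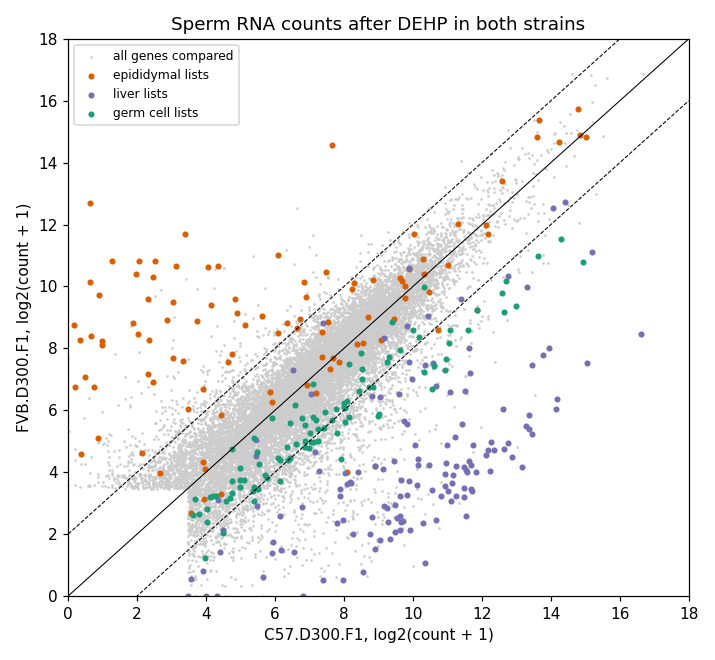
Log2(count + 1) of each of the 17377 genes in C57.D300.F1 (x axis) and FVB.D300.F1 (y axis), each point 1 gene, with the equality line and dashed lines at 2 log2 units. Epididymal genes spread along the upper left, up to Lcn5 at 12.08 log2 units, and liver genes along the lower right, down to Cyp3a25 at -9.28, while germ cell genes lie below the equality line with 1 exception.

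The epididymal lipocalins, small carriers of retinoids and other lipids, had the highest median of the 7 epididymal lists. All 8 lipocalins listed were in the comparison, 5 were called higher and 0 lower, and the lipocalin median was 7.41 log2 units (7.20 when values under 3 counts are set to 3, a form that does not depend on the count added), against -0.07 for all genes. Lcn5, the epididymal retinoic acid-binding protein, had 0.542 counts in C57.D300.F1 (model SD 1.78) and 6686 in FVB.D300.F1 (model SD 9206), a log2 ratio of 12.08 and of 11.12 with values under 3 set to 3. Its difference did not exceed the model SD. Lcn5 stood at 9.18 counts in unexposed FVB/N males, 1.44 in unexposed C57BL/6J males and 0.714 in C57.D300.F2, so FVB.D300.F1 alone of the 5 conditions had it above 10 counts.

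Lcn8 rested at 4.46 counts in C57.D300.F1 and 1273 in FVB.D300.F1, which is 285-fold, and its difference exceeded the model SD. Lcn9 had 2.91 and 1355 counts (log2 ratio 8.44), Lcn6 0.131 and 428 counts (8.57), and Lcn10 2.68 and 454 counts (6.95). None of these 4 passed 5 counts in C57.CTL.F1, C57.D300.F2 or FVB.CTL.F1. The remaining lipocalins were not called. They were Ptgds, the prostaglandin D2 synthase (12514 and 28918 counts, 1.21), Lcn2, an iron carrier of innate immunity (309 and 1113 counts, 1.84), and Lcn12 (825 and 1155 counts, 0.48).

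Lcn8, Lcn5, Lcn6 and Lcn10 are neighbours at chr2:25653118-25686081 (GRCm38). The promoter of Lcn6 is shown because its gene lies inside this stretch, that of Defb23 because it opens the longest stretch of genes higher in FVB.D300.F1, and that of Serpina1d because it belongs to the longest stretch of genes lower. They are RefSeq sequences of GRCm38.p6, from 250 bases before to 50 bases after the annotated start, and read from 5′ to 3′ on the gene's strand. Lcn6 is at chr2:25676536-25676835 on the plus strand, Defb23 at chr2:152464571-152464870 on the minus strand and Serpina1d at chr12:103773584-103773883 on the minus strand. Capitals mark every match, on either strand, to the steroid receptor hexamer TGTTCT, the forkhead motif TGTTTAC or the HNF1 motif GTTAAT. The other lipocalin promoters of this stretch were not alike in matches. Those of Lcn8 and Lcn5 held 0 matches to any of these motifs, and that of Lcn10 held 1, to TGTTCT.
Lcn6: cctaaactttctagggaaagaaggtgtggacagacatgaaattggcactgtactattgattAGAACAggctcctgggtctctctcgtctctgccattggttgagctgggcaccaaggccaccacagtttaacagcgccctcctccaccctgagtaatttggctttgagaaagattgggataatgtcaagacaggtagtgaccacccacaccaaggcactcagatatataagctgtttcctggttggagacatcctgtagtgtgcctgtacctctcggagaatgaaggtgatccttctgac
Defb23: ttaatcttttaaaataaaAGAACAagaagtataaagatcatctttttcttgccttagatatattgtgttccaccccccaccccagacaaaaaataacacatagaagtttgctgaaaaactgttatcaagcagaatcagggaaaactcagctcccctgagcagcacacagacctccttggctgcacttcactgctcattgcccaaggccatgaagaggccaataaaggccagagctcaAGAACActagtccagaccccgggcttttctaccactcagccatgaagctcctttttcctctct
Serpina1d: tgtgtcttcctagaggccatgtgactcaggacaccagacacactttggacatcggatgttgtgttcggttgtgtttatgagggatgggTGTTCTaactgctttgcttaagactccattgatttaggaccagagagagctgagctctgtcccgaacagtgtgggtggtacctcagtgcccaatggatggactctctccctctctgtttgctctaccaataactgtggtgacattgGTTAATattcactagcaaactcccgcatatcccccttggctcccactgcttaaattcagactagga
None of the motifs contains another. Of the 40 promoters of epididymal list genes called higher, 50% held TGTTCT, 0% held TGTTTAC and 5% held GTTAAT. Among the 106 promoters of liver list genes called lower, these shares were 34.0%, 4.72% and 24.5%. For all 16103 promoters of genes in the comparison that RefSeq gave they were 14.0%, 2.68% and 5.07%, and for all 32851 promoters 19.0%, 3.65% and 7.10%. Several promoters in each set belong to tandem copies of 1 gene and are alike in sequence. Over all genes called higher, list members or not, 20.6% of 360 promoters held TGTTCT. Over all genes called lower, 20.2% of 1143 promoters held it, so its share was nearly the same in both directions. A link between a motif and the direction of the difference was not tested. A match is a stretch of letters, and binding was not measured.

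Beta-defensins are small cationic peptides that coat sperm and kill microbes. Of 39 listed with the related Spag11 genes, 31 were in the comparison, 20 of these were higher and 0 lower, and the median log2 ratio was 3.31 (2.95 with values under 3 set to 3). Defb30 had 3.12 counts in C57.D300.F1 and 1829 in FVB.D300.F1, Spag11b, a sperm-binding antimicrobial, 19.5 and 1613, and Defb20 15.7 and 1598. These 3 were low in the other conditions as well, with 30.4 counts at most. Defb22 and Defb23 differed from this pattern. Defb22, a glycoprotein of the sperm surface coat, had 3.99 counts in C57.D300.F1 and 778 in FVB.D300.F1. Unexposed FVB/N males had 457 counts of it and unexposed C57BL/6J males 13.2. Defb23 had 0.863 and 847 counts, with 48.3 in FVB.CTL.F1 and 1.10 in C57.CTL.F1.

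Not every defensin followed. Defb28 had 19236 and 25757 counts (0.42), Defb2 1281 and 1355 (0.08), Defb11 875 and 796 (-0.14), and Defb38 375 and 287 (-0.39). The 11 members that were not called ran from -0.82 for Defb50 to 1.32 for Defb40.

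Cystatins of the tract, which inhibit cysteine proteases, gave 3 called higher of 6 in the comparison. These were 9230104L09Rik (4.70 and 1827 counts, log2 ratio 8.33), Cst11 (0.576 and 337 counts, 7.74) and Cst12 (0.990 and 299 counts, 7.24). Cst3, the cystatin that most tissues secrete, had 1251 and 1881 counts (0.59). Among tract ribonucleases, 4 of 8 were higher and 2 lower. Rnase9 had 67.1 counts in C57.D300.F1 and 2065 in FVB.D300.F1 (4.92), Rnase10, needed for sperm to bind the egg coat, had 27.5 and 766 (4.75), and Rnase13 had 0.394 and 133 (6.58). The lower pair was Ang (269 and 15.1 counts, -4.06) and Rnase4 (1682 and 383 counts, -2.13), which share promoters and are abundant in liver.

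Of 25 other epididymal secretory genes in the comparison, 15 were higher and 0 lower (median 2.78). Gpx5, the selenium-free glutathione peroxidase of the caput that protects sperm from peroxides, had 199 counts in C57.D300.F1 (model SD 50.9) and 24121 in FVB.D300.F1 (model SD 80054), which is 121-fold, and its difference did not exceed the model SD. Elsewhere Gpx5 was at 71.4 counts in unexposed FVB/N males, 202 in unexposed C57BL/6J males and 162 in C57.D300.F2. The mucin gene Muc5b had 9.54 and 3279 counts (8.28), the protease inhibitor gene Spint4 0.540 and 1123 (9.51), the colipase-like Clpsl2 0.269 and 304 (7.91), and Gm6792 1.39 and 1811 (9.56). The binder of sperm proteins Bsph1 had 0.679 and 107 counts (6.01).

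In contrast, several secretory genes with high counts were close to equal. Spink8 had 33319 counts in C57.D300.F1 and 29301 in FVB.D300.F1 (-0.19), Cd52, the glycoprotein that sperm acquire in the epididymis, 29438 and 30497 (0.05), and Wfdc16 4459 and 4035 (-0.14). Clu, the chaperone clusterin, had 12996 and 42154 counts (1.70) and was not called. Adam7, a membrane protein handed from epididymis to sperm, had 28056 and 53922 (0.94), whereas Adam28 had 7.66 and 1612 (7.54). Crisp1, the major secreted protein that coats sperm, could not enter the comparison. It had 219328 counts in FVB.D300.F1 and a failed estimate in C57.D300.F1.

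Of 17 transport and regulatory genes of the epididymal epithelium in the comparison, 2 were higher (11.8%, against 2.65% of all genes) and 1 lower (5.88%, against 7.67%). The median was 0.24 and the range ran from -4.70 to 5.15. The estrogen receptor gene Esr1 had 693 counts in C57.D300.F1 and 490 in FVB.D300.F1 (-0.50), the water channel gene Aqp9 had 2070 and 1672 (-0.31) and Foxi1, the regulator of acid-secreting clear cells, 205 and 203 (-0.02). The higher pair was Ros1, the receptor tyrosine kinase required for the initial segment to differentiate (28.8 and 569 counts, 4.26), and Car4, a carbonic anhydrase (12.2 and 468 counts, 5.15). Ros1 was at 55.9 counts in FVB.CTL.F1, and Car4 at 366. Taking the 7 epididymal lists as 1, 51 of 101 genes were higher and 4 lower, the latter being Ang, Rnase4, Crisp2, which spermatids also make, and Hnf4a, which is in a liver list too. Their median was 2.23, and their summed counts were 177233 in C57.D300.F1 and 321781 in FVB.D300.F1, Crisp1 not included.

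**Figure D2:**
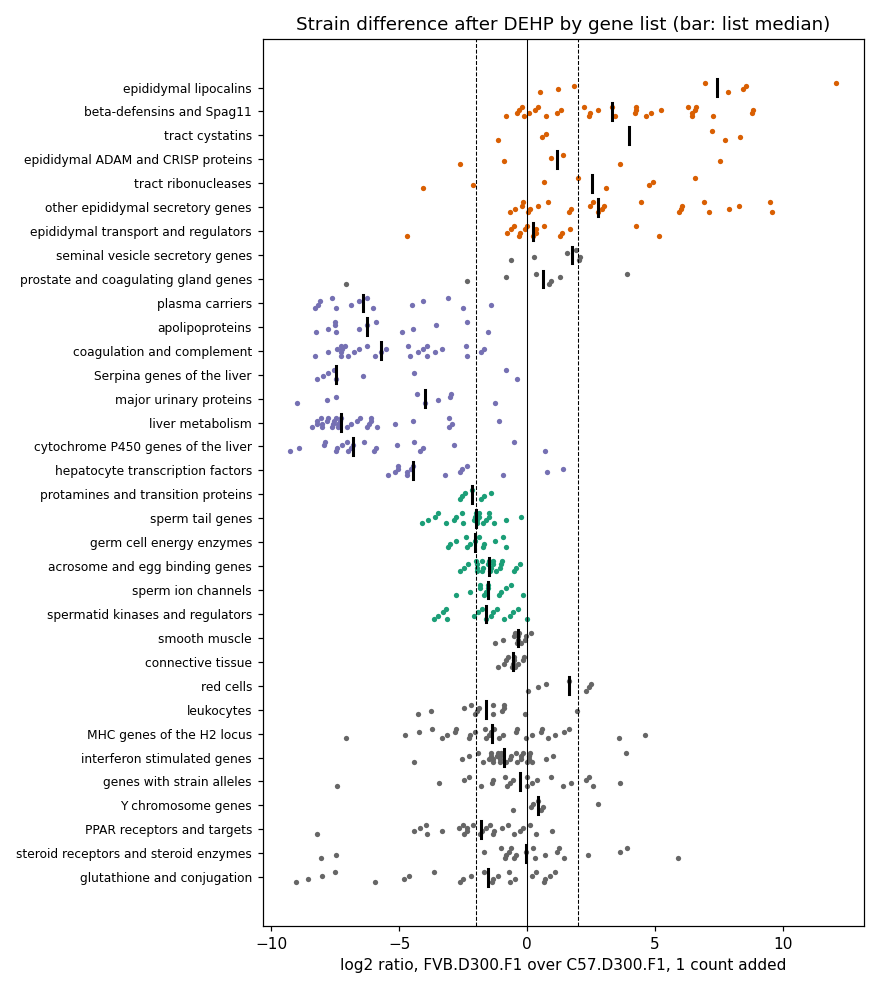
Log2 ratio of FVB.D300.F1 over C57.D300.F1 for the members of each gene list, each point 1 gene, with list medians as black bars and dashed lines at 2 log2 units. Medians run from 7.41 for the epididymal lipocalins to -7.49 for the Serpina genes of the liver, with smooth muscle at -0.36 and connective tissue at -0.55.

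Without DEHP, the 101 epididymal genes summed to 170760 counts in C57BL/6J and 247447 in FVB/N males. The log2 ratio of FVB.CTL.F1 over C57.CTL.F1 had a median of 0.23 for the lipocalins, 0.51 for the defensins, 0.13 for the cystatins and 0.19 for the other secretory genes. The median was 0.67 for the ribonucleases, 0.31 for the ADAM and CRISP genes and 0.18 for the transport and regulatory genes, where that of all genes was -0.03. These medians cover all members in the DEHP comparison, of which only 3 of 8 lipocalins and 3 of 6 cystatins reached 10 counts in an unexposed condition. Since the rest entered through their DEHP counts, the medians describe these members and are no measure of a change with DEHP. Of the 77 epididymal genes that reached 10 counts in an unexposed condition, 6 were higher and 6 lower in FVB.CTL.F1. Among the lower were 2 of the 3 cystatins. In this comparison 246 of 17086 genes were higher (percent called 1.44) and 1518 lower (percent called 8.88). It shares no library with the DEHP comparison. C57.D300.F2 is the C57BL/6J condition of the same library set as FVB.D300.F1. Against it, FVB.D300.F1 had list medians of 7.28 for the lipocalins, 2.46 for the defensins and 4.64 for the cystatins. The medians were 2.01 for the ribonucleases, 1.31 for the other secretory genes, 0.92 for the ADAM and CRISP genes and 0.26 for the transport and regulatory genes. Over the 7 epididymal lists as 1 the median was 1.39, in place of 2.23 against C57.D300.F1, beside -0.01 for all genes. FVB.D300.F1 is common to both comparisons.

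The 460 genes higher with DEHP were shared only in part with those higher without it. Of them 370 reached 10 counts in one of the unexposed conditions, 172 were also higher there, 194 were not called and 4 were lower. The 172 shared genes make up 37.4% of the calls with DEHP and 69.9% of the calls without it. Their wider group of 370 had a median log2 ratio of 1.90 without DEHP. In the other direction the share was larger. Of the 1332 lower genes 1283 were measured without DEHP, 1076 were lower there too, 207 were not called and 0 were higher. These 1076 are 80.8% of the lower calls with DEHP and 70.9% of those without.

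**Figure D3:**
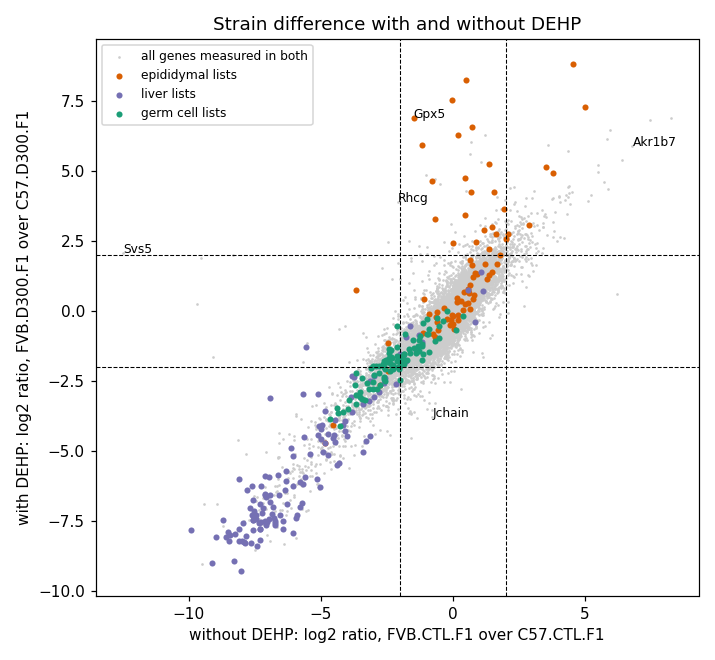
Log2 ratio between strains without DEHP (x axis, FVB.CTL.F1 over C57.CTL.F1) and with DEHP (y axis, FVB.D300.F1 over C57.D300.F1) for genes that reached 10 counts in both comparisons, with dashed lines at 2 log2 units. Liver and germ cell genes lie along the diagonal in the lower left, many epididymal genes such as Muc5b, at 8.28 and 0.50, lie high on the y axis near 0 on the x axis, and genes such as Lcn5 are missing because they stayed under 10 counts without DEHP.

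The liver-type RNAs made up the opposite end. Taking the 8 liver lists as 1, 126 of 139 genes in the comparison were lower in FVB.D300.F1, 0 were higher, and the median log2 ratio was -6.18. Their summed counts were 534659 in C57.D300.F1 and 25943 in FVB.D300.F1, over the 135 genes measured in all conditions. The same sum was 42480 in C57.D300.F2, and in unexposed males it was 675723 for C57BL/6J and 24214 for FVB/N.

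Among plasma carriers 13 of 14 were lower (median -6.43). Alb, the main plasma protein, had 100464 counts in C57.D300.F1 (model SD 443754) and 349 in FVB.D300.F1 (model SD 102), a log2 ratio of -8.17, and this difference did not exceed the model SD. Ttr, the carrier of thyroid hormone and retinol-binding protein, had 17995 and 65.0 counts (-8.09), and Ambp, the precursor of alpha-1-microglobulin, 2830 and 8.09 (-8.28). Trf, the iron carrier transferrin, remained at 2190 counts in FVB.D300.F1 against 37152 (-4.08). The exception was Fetub, a plasma protease inhibitor, with 1381 and 522 counts (-1.40).

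Apolipoproteins, which package lipids in plasma, gave 12 of 13 lower (median -6.26). Apoa2, of high density lipoprotein, had 11295 and 36.2 counts (-8.25) and Apob, the core of low density lipoprotein, 34143 and 184 (-7.53). Apoe, which many cell types make, had 17266 and 5930 (-1.54) and was not called. Coagulation and complement genes gave 25 of 27 lower (median -5.70), among them F2, the prothrombin gene (3352 and 9.59 counts, -8.31), and the fibrinogen genes Fgb (6243 and 65.2 counts, -6.56) and Fga (10221 and 1020 counts, -3.32). C3, the central complement component, was not called (21965 and 6791 counts, -1.69).

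Metabolic genes of hepatocytes gave 30 of 31 lower (median -7.27). Bhmt, which remethylates homocysteine, had 7572 and 21.4 counts (-8.40), Fabp1, the liver fatty acid-binding protein, 4847 and 15.3 (-8.22), and Cps1, the first enzyme of the urea cycle, 18397 and 82.0 (-7.79). Asl, a urea cycle enzyme of many tissues, was not called (902 and 422 counts, -1.09). Cytochrome P450 genes gave 19 of 21 lower (median -6.82), led by the steroid hydroxylases Cyp3a25 (1292 and 1.09 counts, -9.28, or -8.75 with values under 3 set to 3) and Cyp2d9 (2957 and 5.03 counts, -8.94). Cyp4a12a, a fatty acid hydroxylase of male mice, was at 940 and 1544 counts (0.72).

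Serpina genes of the liver gave 7 of 9 lower (median -7.49), and 8 of 9 major urinary protein genes in the comparison were lower (median -4.00, or -2.65 with values under 3 set to 3). Mup3, which encodes a urinary pheromone carrier, had 9264 and 17.1 counts (-9.00). The Serpina1 and Mup genes are near-identical copies, so the split of reads among them is uncertain. Hepatocyte transcription factors gave 12 of 15 lower (median -4.47), for example Hnf4a (478 and 17.4 counts, -4.70) and the bile acid receptor gene Nr1h4 (222 and 4.13 counts, -5.44). Foxa1, a pioneer factor that the epididymis also uses, was at 168 and 451 counts (1.42).

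**Figure D4:**
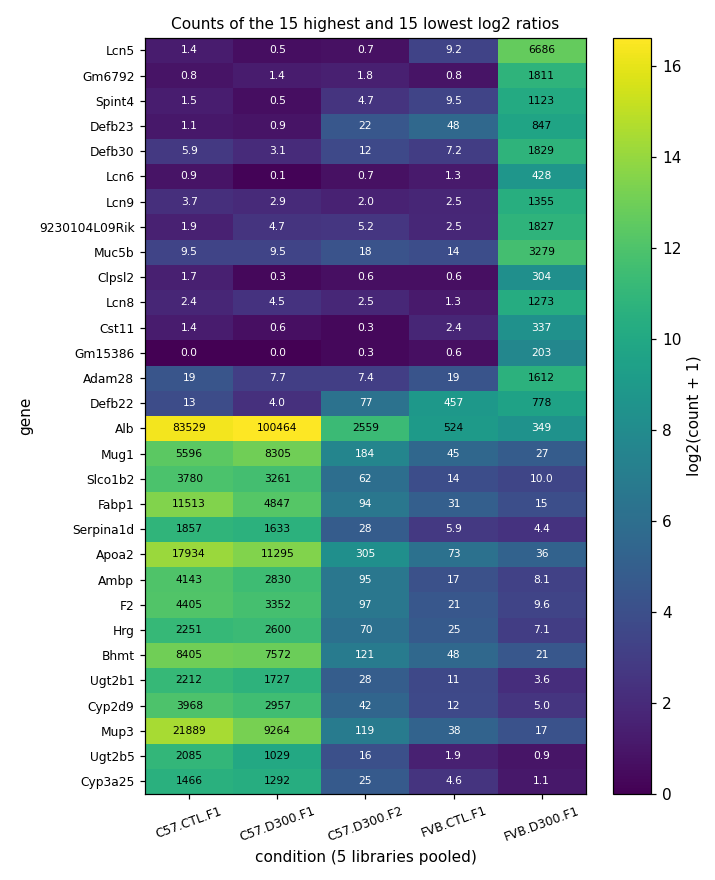
Counts of the 15 genes with the highest and the 15 with the lowest log2 ratio, of those reaching 100 counts, for all 5 conditions. Colour gives log2(count + 1) and the printed number is the count. The upper genes reach at most 77.1 counts outside FVB.D300.F1, except for Defb22 at 457 in FVB.CTL.F1, and the lower genes are liver genes at 1029 to 100464 in C57.D300.F1, 15.6 to 2559 in C57.D300.F2 and 0.941 to 349 in FVB.D300.F1.

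Liver-type RNAs were lower without DEHP as well, with a median of -6.30 and 123 of 135 genes called. Second-generation C57BL/6J males carried much less of them than C57.D300.F1. Alb was at 2559 counts in C57.D300.F2 and at 524 in FVB.CTL.F1, Mup3 at 119 and 37.9, and F2 at 97.4 and 21.3. Compared with C57.D300.F2, FVB.D300.F1 had a median of -1.48 over the liver lists, in place of -6.18 against C57.D300.F1. C57.D300.F2 shares its library set with FVB.D300.F1 but differs from it in both strain and generation.

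RNAs of spermatids and sperm were lower in FVB.D300.F1 to a smaller and more even degree. The labelled cell type was present in both conditions, since Prm1 and Prm2, the protamines that pack sperm DNA, had 1162 and 12610 counts in C57.D300.F1 and 328 and 2019 in FVB.D300.F1. Of 95 germ cell genes in the comparison 33 were lower and 0 higher, 94 had a negative log2 ratio, and the median was -1.78. Protamines and transition proteins gave 4 of 7 lower (median -2.15). Prm2 was past the call limit at -2.64 and Prm1 was not at -1.82.

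Sperm tail genes gave 11 of 23 lower (median -1.99). Smcp, a cysteine-rich protein of the mitochondrial capsule, had 31101 and 1784 counts (-4.12), Odf1, of the outer dense fibres, 20238 and 2944 (-2.78), and Akap4, the scaffold of the fibrous sheath, 2103 and 286 (-2.87). Germ cell energy enzymes gave 7 of 13 lower (median -2.04), for example Gapdhs, the sperm form of the glycolytic enzyme (1279 and 151 counts, -3.08), and Pgk2 (3103 and 386 counts, 8.03-fold). Of the spermatid kinases and regulators 6 of 17 were lower (median -1.63), among them Tssk6, a kinase needed for sperm head shaping (2004 and 202 counts, -3.30).

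Genes of the acrosome and of egg binding gave 3 of 23 lower (median -1.51), namely Crisp2, Spam1 and Spaca1, and ion channels 2 of 13 (median -1.53), namely Lrrc52 and Catsperb. These shares, 13.0% and 15.4%, are nearer to the 7.67% of all genes than those of the tail genes (47.8%). Izumo1, the sperm ligand for the egg, had 33.3 and 12.5 counts (-1.35). Without DEHP the germ cell genes had a median of -2.28 with 57 of 93 lower, and FVB.D300.F1 stood at a median of -1.10 against C57.D300.F2. Summed over the 95 genes, counts were 126507 in C57.D300.F1 and 18291 in FVB.D300.F1, beside 56284 in C57.D300.F2 and 16127 in unexposed FVB/N males.

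Markers of other cell types differed from list to list. The 12 smooth muscle genes summed to 16366 counts in C57.D300.F1 and 13114 in FVB.D300.F1 and the 12 connective tissue genes to 60924 and 38004, and 0 members of either list were called (medians -0.36 and -0.55). The 7 red cell genes in the comparison summed to 2061 and 7031 (median 1.64), with 3 called higher (42.9%, against 2.65% of all genes), among them the alpha-globin gene Hba-a2 (414 and 2213 counts, 2.41). The 14 leukocyte genes summed to 12453 and 3518 (median -1.61), with 5 lower (35.7%, against 7.67%), for example the B cell gene Ms4a1 (165 and 7.60 counts, -4.27) and the macrophage gene Adgre1 (515 and 111 counts, -2.21). Of 8 prostate and coagulating gland genes 1 was higher (12.5%, against 2.65%), Pbsn at 0.280 and 18.4 counts. The 2 lower (25%, against 7.67%) were Azgp1 and Apof, which the liver also makes. The part of these cell types in the strain difference was not tested.

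The seminal vesicle genes Svs4 and Svs5 differed in opposite directions with and without DEHP, both just past the call limit with it. Svs4, an inhibitor of sperm capacitation, had 28.8 counts in C57.D300.F1 against 119 in FVB.D300.F1 (2.01), whereas the unexposed males had 63518 in C57BL/6J and 200 in FVB/N (-8.31). Svs5 had 1.86 and 11.1 counts with DEHP (2.08) and 48670 and 7.47 without. Of 13 seminal vesicle genes 6 were in the comparison, and these 2 were higher and 0 lower. The median was 1.74, but 1.10 with 10 counts added in place of 1 and 0.26 over all listed genes with no minimum count. The 6 summed to 1144 counts in C57.D300.F1, 2316 in FVB.D300.F1, 1759 in C57.D300.F2 and 2522 in FVB.CTL.F1, against 221455 in C57.CTL.F1.

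Genes that differed with DEHP and lay within 1 log2 unit without it numbered 77 among the 1069 called genes with at least 100 counts, 61 of them higher and 16 lower. No minimum count was set without DEHP, so a ratio near 0 there can rest on low counts in both unexposed conditions. Such genes entered through their DEHP counts, and the ratio is no measure of equal strains without DEHP. Of all 460 higher genes, 47 both reached 10 counts in an unexposed condition and lay within 1 log2 unit there. The same held for 35 of all 1332 lower genes. The 10 highest of the 77 were epididymal genes described above, together with Gm15386, a gene model next to Crisp4 and the defensins Defb18 and Defb41 (0 and 203 counts, or 6.08 log2 units with values under 3 set to 3). The 10 lowest included Myh2, the myosin of fast muscle fibres (124 and 17.0 counts, -2.79), Tnnc2, fast troponin C (188 and 31.4 counts, -2.55), Casq1, calsequestrin (159 and 29.7 counts, -2.38), Cmya5 (389 and 52.0 counts, -2.88) and Xirp2, an actin-binding protein (375 and 78.1 counts, -2.25). Also among them were Jchain, which joins secreted antibodies (251 and 17.5 counts, -3.77), Spi1, a myeloid transcription factor (111 and 18.3 counts, -2.54), and Ciita, the activator of MHC class II genes (252 and 46.3 counts, -2.42). The other two were Ppp1r3c and Eng.

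The MHC locus is one where the strains carry different haplotypes. Of 30 H2 genes in the comparison 11 were lower (36.7%, against 7.67% of all genes), 2 higher (6.67%, against 2.65%), and the median was -1.36. H2-Eb1, a class II beta chain, had 1020 counts in C57.D300.F1 and 6.46 in FVB.D300.F1 (158-fold), with 533 in C57.CTL.F1, 854 in C57.D300.F2 and 10.99 in FVB.CTL.F1. Both FVB/N values lay below all 3 C57BL/6J values for H2-Eb1 and in all for 15 of the 30 H2 genes (50%), and above them for 8 (26.7%). Over the 17367 genes measured in all 5 conditions these shares were 32.6% and 29.8%. The class I genes H2-T22 (99.2 and 2.65 counts), H2-T23 (324 and 36.3) and H2-T9 (65.2 and 5.57) were among the 15. The higher pair was H2-Bl (2.55 and 86.0 counts, 4.62) and H2-Ea-ps, a class II alpha chain gene that is annotated as a pseudogene on the C57BL/6J reference (0 and 11.1 counts, 1.89 with values under 3 set to 3). H2-Ea-ps stayed below 1 count in every C57BL/6J condition. Reads were mapped to the C57BL/6J genome, and how many reads FVB/N alleles lost was not measured.

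Of 22 genes at other loci where strains are known to differ, 4 were higher (18.2%, against 2.65% of all genes) and 4 lower (18.2%, against 7.67%). Trim34b had 5.40 counts in C57.D300.F1 and 78.4 in FVB.D300.F1 (3.63), next to Trim12a with 121 and 10.3 (-3.43), and both ratios without DEHP were close to these (3.39 and -3.45). Wdfy1, an adaptor of Toll-like receptors, had 1573 and 282 counts (-2.47), and the interferon-inducible Ifi202b 1.22 and 30.9 (3.85). Tyr, the pigment enzyme whose mutation makes FVB/N albino, had 63.3 and 120 counts (0.91). Nnt, from which C57BL/6J lacks several exons, had 325 and 323 counts (-0.01), and a count over a whole gene does not show a missing part. Hc, the complement component that FVB/N cannot secrete, was lower (3295 and 17.96 counts), but so were most liver genes.

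Of 32 interferon-stimulated genes 3 were lower (9.38%, against 7.67% of all genes) and 1 higher (3.12%, against 2.65%), and the median was -0.92. The lowest ratio was that of Iigp1, a GTPase of cell-autonomous immunity (851 and 39.0 counts, -4.41), which was at 114 in C57.D300.F2. Of 7 genes in the Y chromosome list, 6 are placed on Y by the RefSeq positions used, and 0 of these were called, for example Ddx3y (615 and 676 counts, 0.14) and Uty (345 and 401 counts, 0.22). The remaining one, Erdr1, was called higher (185 and 1252 counts, 2.75), and these positions place it on the X chromosome.

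PPAR receptors and their targets, on which phthalate metabolites act, gave 12 of 26 lower (46.2%, against 7.67% of all genes). None was higher (against 2.65%), and the median was -1.80. Ppara itself had 789 and 50.5 counts (-3.94), and Ppard 231 and 291 (0.33). The same list had a median of -1.78 without DEHP and of -0.42 against C57.D300.F2, and 3 of its members, Fabp1, Cyp4a10 and Cyp4a14, are in the liver lists. Of 24 glutathione and conjugation genes 11 were lower (45.8%, against 7.67%) and 0 higher (median -1.52). The lower genes included 5 Ugt2 genes from -9.05 to -5.95 whose reads are partly shared among copies. Gpx3, an extracellular peroxidase, was at 47029 and 29615 counts (-0.67).

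Steroid receptors and enzymes had no common direction. Of 21 genes 4 were higher (19.0%, against 2.65% of all genes), 2 lower (9.52%, against 7.67%), and the median was -0.03. Akr1b7, an aldose reductase that removes aldehydes formed in steroid synthesis, had 98.8 counts in C57.D300.F1 and 5954 in FVB.D300.F1 (60.3-fold). Akr1b7 also stood at 14293 counts in unexposed FVB/N males, at 127 in unexposed C57BL/6J males and at 5508 in C57.D300.F2. Srd5a2, which converts testosterone to dihydrotestosterone, had 41.6 and 223 counts (2.39), Cyp17a1, which makes androgen precursors, 18.6 and 241 (3.62), and Hsd17b3 1.07 and 29.8 (3.89, or 3.31 with values under 3 set to 3). The lower pair, Akr1c6 and Rdh7, was liver-type. The glucocorticoid receptor gene Nr3c1 had 725 and 222 counts (-1.70).

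microRNAs are short RNAs that pair with target messengers through a seed, and sperm carry a large set. The table held 1163 microRNA genes and the comparison 133 of them, and 38 were lower (28.6%, against 7.67% of all genes), 10 were higher (7.52%, against 2.65%), and the median was -0.63. Of those past 2 log2 units with at least 100 counts, 16 were lower and 5 higher. The sequences below are mature forms from RefSeq on GRCm38.p6, shown because their genes differed, with seed bases 2 to 8 in capitals. The first 3 share a seed, as do the next pair, and the last 4 have seeds that no other sequence shown here has.
mmu-miR-99a-5p: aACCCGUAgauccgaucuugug
mmu-miR-99b-5p: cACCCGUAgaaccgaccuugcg
mmu-miR-100-5p: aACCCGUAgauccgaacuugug
mmu-miR-10a-5p: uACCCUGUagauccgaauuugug
mmu-miR-10b-5p: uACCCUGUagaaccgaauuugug
mmu-miR-192-5p: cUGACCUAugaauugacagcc
mmu-miR-27b-3p: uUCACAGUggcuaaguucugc
mmu-miR-871-3p: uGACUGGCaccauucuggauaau
mmu-miR-8114: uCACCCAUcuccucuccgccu
A gene's count covers the whole hairpin gene and does not say which arm was read, and the RNA had been fragmented.

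Mir10b had 40273 counts in C57.D300.F1 (model SD 44028) and 8195 in FVB.D300.F1 (-2.30), and Mir10a 28919 (model SD 28510) and 4199 (-2.78), and neither difference exceeded the model SD. In C57.D300.F2, of the same library set as FVB.D300.F1, they stood at 88039 and 35896. The genes that share the other seed had 308 and 59.0 counts for Mir99a (-2.37), 579 and 75.3 for Mir99b (-2.93), and 289 and 9.90 for Mir100 (-4.73).

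Mir192, a microRNA abundant in liver, had 698 and 4.83 counts (-6.91) and 93.0 in C57.D300.F2. By contrast Mir34c, an abundant RNA of germ cells, had 543 and 12.7 counts (-5.31) and 534 in C57.D300.F2, and Mir27b had 313 and 7.56 (-5.20) and 400 in C57.D300.F2. Both FVB/N values lay below all 3 C57BL/6J values for 69 of the 133 microRNA genes (51.9%, against 32.6% of all genes), Mir191, Mir143, Mir141, Mir182 and Mir183 among them, and above all 3 for 29 (21.8%, against 29.8%). A stretch of 7 microRNA genes on the X chromosome, Mir743b to Mir465 at chrX:66777256-66839125 (GRCm38), was lower throughout, from -6.64 for Mir871 (548 and 4.52 counts) to -2.07 for Mir470 (67.3 and 15.3 counts).

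Of the 5 higher microRNA genes, Mir8114 had 7.37 counts in C57.D300.F1 (model SD 59.3) and 519 in FVB.D300.F1 (model SD 952), and its difference did not exceed the model SD. It lies within 100000 bases of Teddm2, Teddm1b and Teddm1a, which were also called higher. Mir6236 had 6937 and 34245 counts (2.30) and Mir5099 2685 and 17016 (2.66). Small nucleolar RNA genes guide chemical modification of ribosomal RNA. Of 113 in the comparison 10 were higher (8.85%, against 2.65% of all genes), 0 were lower (against 7.67%), and the median was 0.90.

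**Figure D5:**
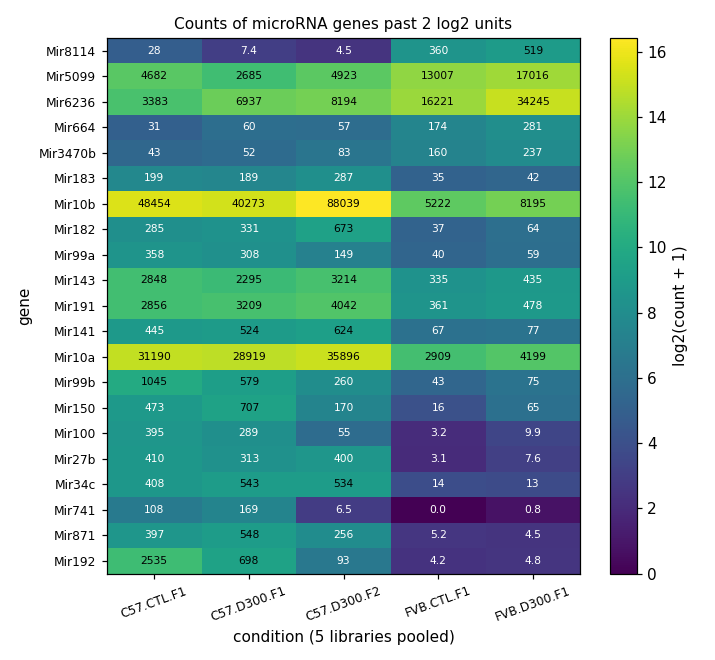
Counts of the 21 microRNA genes past 2 log2 units with at least 100 counts, in the 5 conditions, with colour for log2(count + 1) and the count printed. Mir10a and Mir10b stand at 4199 and 8195 in FVB.D300.F1 and at 28919 and 40273 in C57.D300.F1, and Mir192 is low in C57.D300.F2 too, at 93.0.

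Some called genes were neighbours. Stretches of called genes of 1 direction, each no more than 100000 bases from the next, held 115 of 458 higher genes with a known position and 521 of 1327 lower genes. The share for as many genes drawn at random was not computed, so these counts are a description and the directions cannot be compared. The longest higher stretch was a row of 9 defensins, Defb23, Defb20, Defb22, Defb26, Defb29, Defb21, Defb19, Defb45 and Defb25, at chr2:152459055-152623053, with log2 ratios from 2.46 to 8.83 and a median of 0.72 without DEHP. Next came 5 genes at chr2:164562715-164718068, Wfdc2, Eppin, Wfdc13, Spint4 and Spint5, all of them protease inhibitors, with a median of 2.84 and of 2.00 without DEHP. Further stretches of 4 genes included the lipocalins, the row from Crisp4 to Gm15386 on chromosome 1, Defb48 to Defb42 on chromosome 14 and Defb39 to Spag11a on chromosome 8.

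The longest lower stretch was that of 10 Serpina genes from Serpina10 to Serpina4-ps1 at chr12:103616675-104086920, with log2 ratios from -8.23 to -4.39. It was followed by 7 genes at chr7:140763819-141016892, from Cyp2e1, the ethanol-oxidising P450, to Ifitm6 (median -4.11), and by the X chromosome microRNAs. By chromosome, leaving out Y with 6 genes, the share of higher genes ran from 0.942% on chromosome 3 to 4.58% on the X chromosome and 3.87% on chromosome 2, which holds the lipocalin, defensin and Wfdc stretches.

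The study itself named RNAs of DEHP-resistance, DEHP-susceptibility and generational impact from these samples, so their direction here is not independent evidence. All 9 of the first were higher (median 8.33). Of the second, 5 of 11 were in the comparison and 2 were higher. All 42 of the third were lower (median -7.54), and they were lower without DEHP too (median -7.48).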

How the data were processed

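Sperm RNA of 25 libraries was sequenced by all-RNA-seq (ribosomal RNA depletion, fragmentation, end treatment and small RNA library preparation). Per the labels and the paper, the authors used CASAVA 1.8.2, clipped adapters, mapped strand-specifically to mm10 with TopHat and quantified with Cuffdiff. Per gene and condition the authors deposited 1 signal, an estimated fragment count with a model variance, scaled between libraries by Cuffdiff, whose options are not given in the sources used here. The release of the annotation is not given in the sources used here.

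Each condition pools 5 libraries, so neither a test nor an SD between libraries was computed. Failed estimates were treated as missing. Log2 ratios used 1 added count, a minimum of 10 counts and a call limit of 2 log2 units. Values of 3 counts or fewer were taken as near the limit of detection, which covers counting error only. The members and gene lists were chosen with earlier results of these data known. Genes named were the 15 highest and 15 lowest with at least 100 counts, list members, called microRNA genes with at least 100 counts, genes called in opposite directions with and without DEHP, the 10 highest and 10 lowest called with DEHP and within 1 log2 unit without, and the 3 longest stretches in each direction. Stretches of 4 genes tied for the third place among higher genes.

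Positions came from RefSeq (GRCm38.p6, the build mm10) by symbol or a unique synonym, for 17327 of 17377 genes. Mature microRNA sequences were used for 19 of 21 named genes, with those on chromosome 18 left out. The calling steps were run on simulated counts with counting error only and with changes set past the call limit. Because the model variance was not put in, the simulation does not show how often real counts are called wrongly. Python 3.11.15, numpy 2.4.6, pandas 2.3.3 and matplotlib 3.10.9 were used. Alternatives were other scalings, added counts of 0.1 and 10, minimum counts of 100 and none, a limit of 1 log2 unit, the model SD, and values under 3 set to 3.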

Additional observations from a re-analysis of the deposited data

Results flagged for a closer look

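For 4 genes the strain difference was past 2 log2 units in opposite directions with and without DEHP. The difference between the comparisons was not tested, since each condition has 1 pooled value. Rhcg, an ammonium channel, had a log2 ratio of 3.89 with DEHP (44.0 counts in C57.D300.F1 and 668 in FVB.D300.F1) and of -2.07 without it (49.2 and 10.9 counts). The seminal vesicle gene Svs4 had 2.01 with DEHP and -8.31 without, and Svs5 had 2.08 with DEHP and -12.49 without. The Svs5 call with DEHP rests on low counts and is lost with values under 3 set to 3. The gene model Gm10052 had 2.47 with DEHP and -2.44 without, on at most 14.8 counts in any condition, and its model SD of 25.4 in FVB.D300.F1 exceeded its count of 13.0.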

How the results depend on the processing

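With 10 counts added in place of 1, 231 genes were higher and 842 lower, 76 and 716 of them also without DEHP, and medians were 1.10 for the seminal vesicle list and -5.21 for the liver lists. A minimum of 100 counts left 222 higher and 847 lower, with 72 shared higher calls. A call limit of 1 log2 unit gave 2091 higher and 3457 lower genes, of which 980 and 2625 were shared. With no minimum, the medians were 1.68 for the epididymal lists and 0.26 for the seminal vesicle list. The construction of these settings changes how many genes are compared or passed, and other causes were not tested. Under the remaining settings these counts stayed within 1.5 times and the medians within 0.5 log2 units. No called named gene changed sign, and the 3 scalings moved none by more than 0.5, but 10 counts added took 51 of 326 under the call limit. Upper quartile scaling moved the median of all genes from -0.07 to 0.05 and gave 531 higher and 1195 lower.

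No paired analysis was possible because each condition has 1 pooled value, and leaving out each library and the replicate block were not run for the same reason. Strain, library set and FVB/N read loss on the C57BL/6J genome cannot be told apart, and no value here carries an SD computed between males.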

Other observations

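Some genes were higher in FVB/N in both comparisons. The genes in this paragraph were chosen after their values were seen, among the 20 with the largest smaller of both log2 ratios, and each had at least 100 counts in FVB.D300.F1 or C57.D300.F1. Aqp2, a water channel, had 2.56 counts in C57.D300.F1 and 424 in FVB.D300.F1, and 2.84 and 1181 in the unexposed males of these strains. Tmem27, a collectrin, had 1.54, 225, 2.00 and 183 in the same order. Chga, the chromogranin of secretory granules, had 17.6, 987, 39.3 and 823. Rprl3, an RNase P RNA gene, had 9.63, 1210, 3.75 and 841. In C57.D300.F2 none of these 4 exceeded 57.2 counts. Aqp2 lies beside Aqp5, Aqp6 and Faim2, which were also called higher, at chr15:99497005-99605478.

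Genes outside the lists that were lower in both FVB/N conditions but within 1 log2 unit between C57.D300.F1 and C57.D300.F2 were also chosen after their values were seen. Prr30 had 1414 counts in C57.D300.F1 against 832 in C57.D300.F2, 39.1 in FVB.D300.F1 and 30.8 in FVB.CTL.F1. Mndal, an interferon-inducible gene, had 121, 62.6, 3.93 and 4.41 in the same order, and Gabra3, a GABA receptor subunit gene, 192, 198, 17.8 and 13.5.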
